A study of Mus musculus with 2 samples.

Results

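The cornified envelope genes were taken as every gene whose symbol begins with Sprr or Lce, together with Flg, Flg2, Lor, Ivl, Hrnr, Rptn, Tchh, Crnn, Crct1, Krtdap, Sbsn, Dmkn, Tgm1, Tgm3, Casp14 and Asprv1. The rule used symbols and no measured value, and it found 52 of the 31053 genes listed. They were described in 1 epidermal and 1 dermal library of single cells (10x Genomics 3′ chemistry, in which each captured transcript is counted once by its unique molecular identifier, UMI). Both libraries came from the ear skin of wild type C57BL/6 mice given imiquimod (IMQ), a TLR7 agonist that produces a psoriasis-like dermatitis, over 5 days. The labels give an age of 10 weeks. According to the methods, live epidermal cells of every kind were sorted, whereas the dermal cells were sorted as live CD45+ cells, so the dermal library was not made to hold keratinocytes. No untreated skin entered this comparison, so nothing here separates an effect of IMQ from the state of the skin without it, and neither tissue has a replicate library. No test was therefore possible: levels are given with exact 95% Poisson intervals, proportions with the Clopper-Pearson interval and ratios with the conditional one, and each of these covers counting error and not the spread between cells, mice or libraries.

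The cornified envelope is the cross-linked protein shell that replaces the plasma membrane of a keratinocyte as it becomes a dead corneocyte. Its precursors are small proline-rich proteins (Sprr), late cornified envelope proteins (Lce), loricrin and involucrin, which transglutaminases join to each other and to keratin-binding proteins of the filaggrin type. Most of these genes lie side by side in the epidermal differentiation complex. In normal epidermis they are silent in dividing basal cells and are switched on in order as cells move through the spinous and granular layers, and the Sprr genes are also known as a group that rises in stressed, wounded and psoriatic epidermis.

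After cells with under 200 genes or over 10% mitochondrial UMIs were removed, 4173 epidermal and 4747 dermal cells remained, with medians of 25918 and 7010 UMIs per cell. Of the epidermal cells, 3068 fell in clusters where 16 or 17 of 17 keratinocyte markers stood out, none of them a member of the set, and these cells are called keratinocyte-like here (median 32347 UMIs per cell, 100620802 UMIs in all). The dermal library held 1 such cell. The members were left out of the genes used for clustering, so no keratinocyte cluster was defined by them. The 30 barcodes found among the kept cells of both libraries made up 0.719% of the kept epidermal cells.

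The keratinocyte-like cells divided into 8 clusters. Clusters 1 (657 cells) and 4 (404 cells) were basal-like, cluster 2 (581 cells) was cycling-like and cluster 5 (313 cells) was upper follicle-like, with Krt79, a keratin of the follicle duct, at 474 CPM (UMIs of the gene scaled to 1000000 UMIs of the group) against 11.1 CPM or fewer in clusters 1 to 4, 6 and 7. Clusters 6 (288 cells) and 7 (240 cells) were spinous-like. Cluster 6 was less markedly so, with Krt1 at 633 CPM and Krt10 at 340 CPM, against 4253 and 2900 CPM in cluster 7. No spinous marker was among the 10 leading genes of cluster 6. Cluster 3 (505 cells, led by Cdc6, Ccne2 and Ung) and the shallow cluster 8 (80 cells, median 2515 UMIs) were left unnamed. Cluster 7 carried as many granular markers as spinous ones, 11 of each, and no cluster was separately granular-like. The basal-like name does not mean quiescent, since Mki67 stood at 98.0 CPM in cluster 1 and 177 CPM in the cycling-like cluster. Of the spinous-like clusters, cluster 6 had Mki67 at 121 CPM and cluster 7 at 29.2 CPM.

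Together the 52 members gave 487628 UMIs in keratinocyte-like cells, 0.485% of all UMIs there, and these cells held 97.3% of all member UMIs found in the kept cells of the 2 libraries. The output was concentrated in a few genes. Krtdap and Dmkn, which encode secreted peptides of differentiating keratinocytes, gave 74.8% of member UMIs, and with Sbsn the 3 secreted-protein genes gave 77.3%. The 15 Sprr genes gave 20.6%, Tgm1 and Tgm3 1.09%, Lor and Ivl 0.452%, Casp14 and Asprv1 0.281%, the 22 Lce genes and Crct1 0.124%, and the 6 genes of S100-fused proteins 0.115%. Reads are counted from the 3′ end of transcripts, so CPM is not divided by transcript length.

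Of the 52 members, 26 reached 20 UMIs, 16 had between 1 and 9 UMIs and 10 had none, where 0 UMIs allows a level of up to 0.0298 CPM. Of all genes listed, 41.6% reached 20 UMIs and 42.7% had none in the same cells. Filaggrin (Flg), which bundles keratin in the granular layer, had 4 UMIs, its relative Flg2 had none, and hornerin (Hrnr) had 1. Repetin (Rptn), Sprr3, Sprr4 and the genes Lce1a1, Lce1e, Lce1h, Lce1j, Lce1k and Lce1l were also at 0. The other members under the limit were Lce3d (9 UMIs), Crnn (7 UMIs), Lce3b (6 UMIs), Lce3f (5 UMIs), Lce3a and Lce3e (4 UMIs each), Lce1f (3 UMIs), Lce1a2, Lce1b and Lce1g (2 UMIs each) and Lce1c, Lce1d, Lce1i and Lce1m (1 UMI each). No ratio is given for genes at these numbers.

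Position on the chromosome followed the families closely. The mm10 annotation (GENCODE M21) places 45 members in 1369 kb of chromosome 3, from Lor (start 92080271) to Tchh (end 93449077). The Sprr block of 15 genes spans 285 kb, and 13 of its genes had at least 20 UMIs. The Lce block of 21 genes spans 399 kb, and 2 of its genes did, Lce6a and Lce3c. In the same cells, nearly every gene of the Sprr block was counted and most genes of the neighbouring Lce block gave few UMIs or none. The 14 Lce1 genes gave 13 UMIs in all, and the 6 Lce3 genes, a group induced in injured and psoriatic epidermis, gave 132 UMIs, of which Lce3c held 104. The remaining 7 members lie elsewhere: Krtdap, Dmkn and Sbsn are neighbours on chromosome 7, Tgm3 is on chromosome 2, Asprv1 on chromosome 6, Casp14 on chromosome 10 and Tgm1 on chromosome 14.

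**Figure D1:**
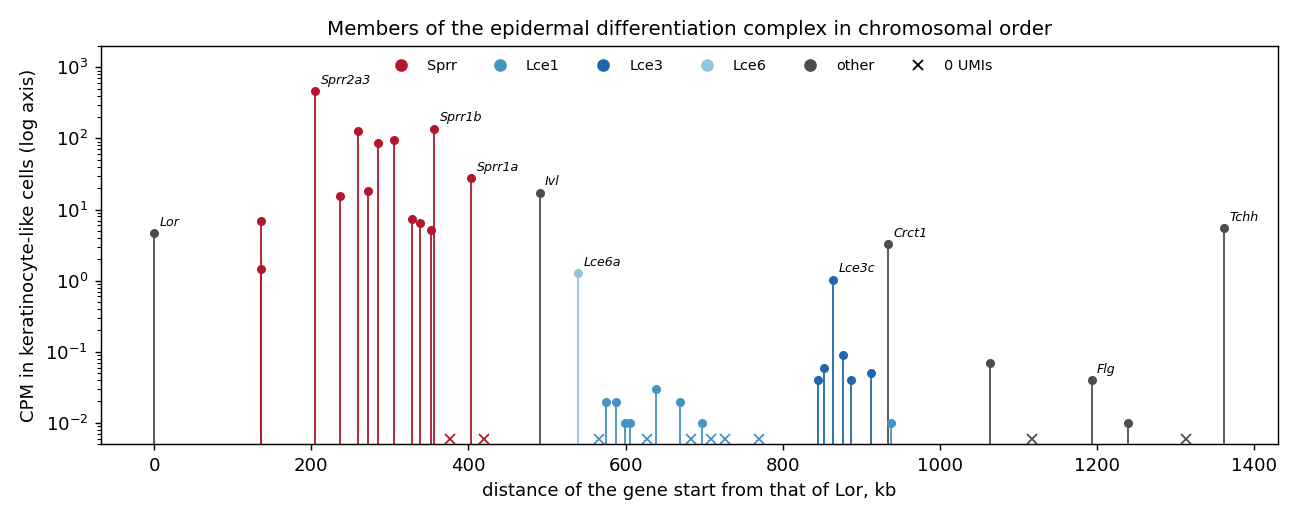
Level of the 45 members of chromosome 3 in keratinocyte-like cells (vertical axis, CPM on a log scale) against the distance of the gene start from that of Lor (horizontal axis, kb). Each stem is 1 gene and a cross marks a gene with 0 UMIs; the Sprr genes reach 463 CPM at Sprr2a3, while no Lce1 gene had more than 3 UMIs.

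Upstream letters differed among some of these families but did not follow the counts gene by gene. RefSeq gives 52 promoters for 49 members (Sprr2j-ps, Lce1f and Crct1 were not matched), and the 250 bases before each start were searched on both strands for the AP-1 letters TGANTCA, the TATA letters TATAAA and the STAT letters TTCNNNGAA. AP-1 letters were found in 20 of the 52 member promoters (38.5%) and in 6.75% of all 32851 promoters. TATA letters were found in 22 of 52 member promoters and in 12.4% of all, and STAT letters in 3 of 52 and in 7.02% of all. Both AP-1 and TATA letters were present in all 7 Sprr2 promoters outside the Sprr2a group and in both Sprr1 promoters, against 1.21% of all promoters. In the 7 Sprr2 promoters the arrangement was nearly fixed, with AP-1 letters starting 182 to 198 bases and TATA letters 29 bases before the start. None of the 3 Sprr2a promoters, 13 Lce1 promoters or 6 Lce3 promoters held AP-1 letters. RefSeq and GENCODE place some starts differently: the Sprr2a3 promoter ends at 92285303, but GENCODE starts that gene at 92285417. Starts also differ for Sprr2a1, Sprr2a2 and Sprr2b. Whether the letters found depend on the start used was not tested. Both AP-1 and TATA letters were also present for Lor and Ivl, and for Crnn, Flg and Rptn, which gave only 7, 4 and 0 UMIs. The sequences below are GRCm38.p6, 5′ to 3′ on the strand of the gene and end at the base before the RefSeq start, with the AP-1, TATA and STAT letters in capitals. Sprr1b (chr3:92438780-92439029, minus strand), Sprr2d (chr3:92338890-92339139, plus strand) and Sprr2h (chr3:92385435-92385684, plus strand) are shown for the shared arrangement, Sprr2a3 (chr3:92285054-92285303, plus strand) for its absence in the most abundant Sprr gene, and Krtdap (chr7:30787655-30787904, plus strand) as the most abundant member.
Sprr1b: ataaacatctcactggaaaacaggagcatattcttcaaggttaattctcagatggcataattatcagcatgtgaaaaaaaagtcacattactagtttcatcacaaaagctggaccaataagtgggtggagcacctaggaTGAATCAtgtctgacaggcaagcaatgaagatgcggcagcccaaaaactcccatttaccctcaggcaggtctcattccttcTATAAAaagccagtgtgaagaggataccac
Sprr2d: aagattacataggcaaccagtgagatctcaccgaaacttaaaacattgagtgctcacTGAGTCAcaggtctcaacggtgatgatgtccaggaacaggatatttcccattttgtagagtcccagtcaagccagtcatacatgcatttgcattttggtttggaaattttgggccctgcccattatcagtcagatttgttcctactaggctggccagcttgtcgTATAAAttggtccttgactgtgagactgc
Sprr2h: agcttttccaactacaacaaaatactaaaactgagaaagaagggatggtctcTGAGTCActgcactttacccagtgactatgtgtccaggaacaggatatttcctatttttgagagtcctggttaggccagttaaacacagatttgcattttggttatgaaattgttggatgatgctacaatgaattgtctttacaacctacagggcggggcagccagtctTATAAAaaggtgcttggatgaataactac
Sprr2a3: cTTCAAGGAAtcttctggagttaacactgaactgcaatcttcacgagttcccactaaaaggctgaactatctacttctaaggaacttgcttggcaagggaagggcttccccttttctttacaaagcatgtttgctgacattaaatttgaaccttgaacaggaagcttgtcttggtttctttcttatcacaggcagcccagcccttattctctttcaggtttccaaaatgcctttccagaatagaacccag
Krtdap: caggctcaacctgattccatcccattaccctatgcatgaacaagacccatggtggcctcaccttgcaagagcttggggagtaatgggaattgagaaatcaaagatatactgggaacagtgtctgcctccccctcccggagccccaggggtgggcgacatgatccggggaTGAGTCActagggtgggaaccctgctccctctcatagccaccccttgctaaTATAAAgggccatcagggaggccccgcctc
A match is a description of letters and not evidence of binding, and no binding was measured in these cells. Sprr2a3, Sprr2a1 and Sprr2a2 also share transcript sequence: of the 91-base windows in their last 300 bases, 55.5%, 100% and 72.9% occur in another of the group, and the annotated spans of Sprr2a1 and Sprr2a2 overlap. How reads were divided among these 3 genes is uncertain. No other Sprr gene shared such a window.

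The set took a larger share of UMIs in the spinous-like clusters than elsewhere. Member UMIs made up 0.454% of the UMIs of cluster 1, 0.331% of cluster 4, 0.346% of the cycling-like cluster 2, 0.406% of cluster 3 and 0.440% of the upper follicle-like cluster 5. The share was 0.695% (0.690 to 0.700) in cluster 6 and 1.21% (1.2 to 1.22) in cluster 7. Among the 26 members with at least 20 UMIs, 17 had their highest level in cluster 7 out of clusters 1 to 7. The 9 others were Ivl and Tchh (highest in cluster 1), Lor (cluster 2), Sprr2a1 (cluster 3), Sprr2a3, Sprr2a2 and Lce6a (cluster 4), and Asprv1 and Crct1 (cluster 5). The share of all genes highest in cluster 7 was not counted, so the 17 have no reference. Among the 17, Lce3c and Sprr2k rested on few cells. Without its 5 richest cells of each cluster, Sprr2k was at 6.07 CPM in cluster 7 and 5.22 CPM in cluster 1. No gene specific to immune cells is a member, but Ptprc, which encodes CD45, had a UMI in 1.58% to 6.24% of the cells of clusters 1 to 7. Over basal-like, cycling-like, spinous-like and upper follicle-like cells the member share was 0.423%, 0.346%, 0.876% and 0.440%, and it was 0.423%, 0.347%, 0.879% and 0.441% over those cells without a Ptprc UMI. Without the cells whose barcode was in both libraries it was 0.422%, 0.346%, 0.876% and 0.440%.

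**Figure D2:**
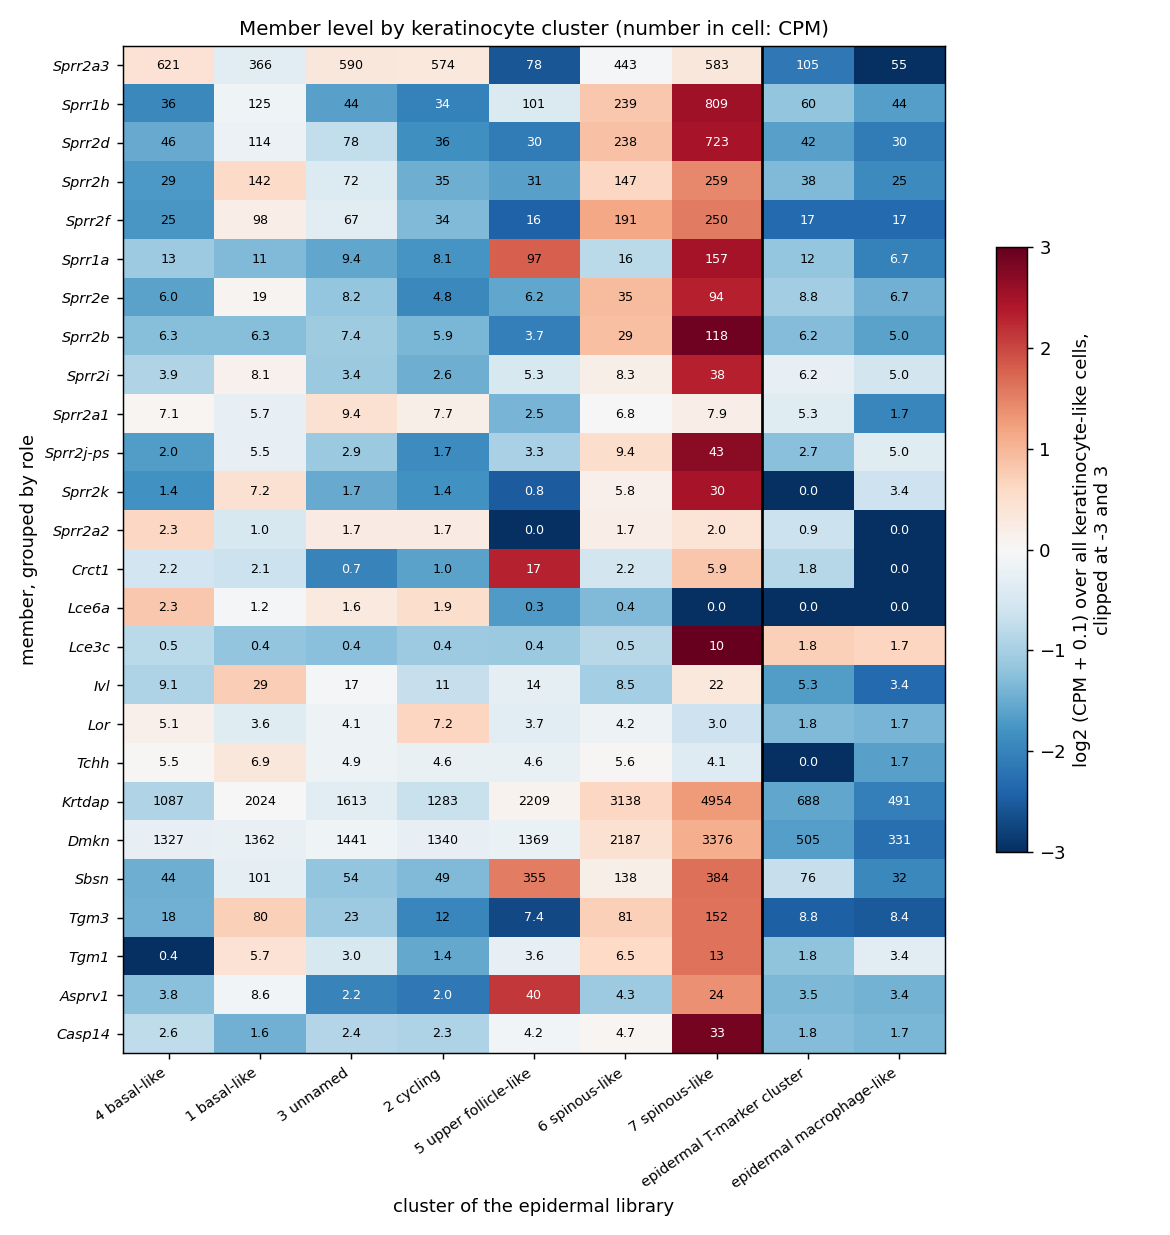
Level of the 26 members with at least 20 UMIs (rows, grouped by role) in 7 keratinocyte-like clusters and 2 groups of other cells of the epidermal library (columns); the number in each cell is CPM and the colour is the log2 ratio of (CPM + 0.1) to that over all keratinocyte-like cells. Most rows are darkest red in cluster 7, whereas Sprr2a3 is spread over clusters 1 to 4, 6 and 7 and Crct1 and Asprv1 are highest in cluster 5.

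Free RNA from broken keratinocytes bears on how low levels may be read. In the epidermal library, a cluster of 475 cells with T cell markers (median 2277 UMIs) held members at 0.160% of UMIs and 124 macrophage or monocyte-like cells (median 4291 UMIs) at 0.108%. For the 13 members with the most UMIs, the CPM in the T-marker cluster was 18.1% to 61.9% of that in keratinocyte-like cells (median 33.7%). In CPM, 13 of 26 members in cluster 2 were at or below the T-marker cluster, as were 11 in cluster 5, 8 each in clusters 3 and 4, 3 in cluster 1 and 1 each in clusters 6 and 7. On that scale those levels are no more than those of the T-marker cluster. The interval lay above that of the T-marker cluster for 4 members in cluster 4 and 5 in cluster 2. The number was 9 each in clusters 3 and 5, 13 each in clusters 1 and 6, and 20 in cluster 7. In UMIs per cell, by contrast, 25 or 26 of the 26 members were above that cluster in each of clusters 1 to 7. The keratinocyte-like cells are many times deeper, and which scale describes free RNA in them was not tested.

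Among the secreted proteins, Krtdap was the most abundant member, at 2041 CPM over all keratinocyte-like cells and with a UMI in 99.8% of them. Its level was 1087 CPM in cluster 4, 1283 in cluster 2, 1613 in cluster 3, 2024 in cluster 1, 2209 in cluster 5, 3138 in cluster 6 and 4954 in cluster 7, and no pair of neighbours in that order had overlapping intervals. These intervals leave out the spread between cells. The median of Krtdap over single cells was 1936 CPM in cluster 1 and 1760 CPM in cluster 5, so no order between those clusters is read. Krtdap was thus found in every cluster, lowest in cluster 4 and highest in cluster 7. Dmkn, which encodes dermokine, lay between 1327 and 1441 CPM in clusters 1 to 5 and reached 2187 CPM in cluster 6 and 3376 CPM in cluster 7. Sbsn, the gene of suprabasin, a transglutaminase substrate, was at 44.2 to 101 CPM in clusters 1 to 4 and 138 CPM in cluster 6. Its pooled levels in the upper follicle-like cluster (355 CPM) and cluster 7 (384 CPM) stood close together and above all others. In the upper follicle-like cluster, however, 24.4% of the Sbsn UMIs came from 5 cells. The median over single cells was 128 CPM there and 217 CPM in cluster 7. In the T-marker cluster Krtdap stood at 688 CPM, Dmkn at 505 CPM and Sbsn at 76.1 CPM. Sbsn in clusters 2, 3 and 4 was below that level in CPM. It was above the 31.9 CPM (19.2 to 49.9) of the epidermal macrophage or monocyte-like cells, so this reading depends on the group taken as background.

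Most Sprr genes had a steep gradient between clusters 4 and 7. Sprr1b was at 35.9 CPM in cluster 4, 33.8 in cluster 2, 44.2 in cluster 3, 101 in cluster 5, 125 in cluster 1, 239 in cluster 6 and 809 in cluster 7. The values in clusters 2 to 4 are below the 60.1 CPM of the T-marker cluster. In cluster 5, 59.5% of the Sprr1b UMIs came from 5 of 313 cells. Without those 5 cells its level there was 41.8 CPM, also below the T-marker cluster. Sprr2d followed the same order at its upper end, with 114 CPM in cluster 1, 238 in cluster 6 and 723 in cluster 7. Sprr2h and Sprr2f differed less, at 142 and 98.0 CPM in cluster 1 and 259 and 250 CPM in cluster 7. Sprr2b was at 3.69 to 7.37 CPM in clusters 1 to 5, 29.0 CPM in cluster 6 and 118 CPM in cluster 7. Sprr2e was at 19.4 CPM in cluster 1 and 93.5 CPM in cluster 7, Sprr2i at 8.07 and 37.6 CPM, Sprr2j-ps at 5.49 and 43.3 CPM, and Sprr2k at 7.20 and 29.5 CPM. The Sprr2 genes with the AP-1 and TATA arrangement were thus all highest in cluster 7. So were Casp14 and Tgm1, whose promoters held no AP-1 letters. Ivl and Lor, whose promoters held both kinds of letters, were highest in clusters 1 and 2.

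Sprr1a and the Sprr2a group departed from that order. Sprr1a was between 8.09 and 15.8 CPM in clusters 1 to 4 and 6, near the 12.4 CPM of the T-marker cluster, and reached 97.3 CPM in cluster 5 and 157 CPM in cluster 7. In cluster 5, 59.5% of its UMIs came from 5 of 313 cells. Sprr2a3, the most abundant Sprr gene at 463 CPM, was at 366 CPM in cluster 1, 443 in cluster 6, 574 in cluster 2, 583 in cluster 7, 590 in cluster 3 and 621 in cluster 4. The intervals of clusters 2, 3 and 7 overlapped. In the upper follicle-like cluster Sprr2a3 was at 77.6 CPM, under the 105 CPM of the T-marker cluster. That level was close to the 55.5 CPM (38.2 to 77.9) of the epidermal macrophage or monocyte-like cells, and above it. Sprr2a1 (2.53 to 9.44 CPM) and Sprr2a2 (up to 2.28 CPM, with 0 UMIs in cluster 5) were also lowest there.

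Shares of cells were also compared at a common depth. When each cell was thinned to 2000 UMIs, 30.2% of spinous-like cells (26.3 to 34.3) had a UMI of Sprr1b, against 12.3% of basal-like cells (10.4 to 14.5), 5.68% of cycling-like cells and 10.3% of cells of the T-marker cluster. Unthinned, these shares were 80.3%, 66.3%, 62.7% and 10.9%. At this depth the Sprr1b share of basal-like cells was close to that of the T-marker cluster and the share of cycling-like cells was lower. In UMIs per cell Sprr1b was at 5.24, 0.819 and 1.21 in clusters 1, 4 and 2, against 0.143 in the T-marker cluster. Thinning compares cells on a scale like that of CPM. Which scale describes free RNA was not tested, so thinning cannot decide whether these cells are separated from background. For Sprr2a3 the thinned shares were 46.1% in basal-like, 52.2% in cycling-like and 44.4% in spinous-like cells, against 18.3% in the T-marker cluster and 13.1% in the upper follicle-like cluster; unthinned they were 94.5%, 97.1%, 94.1%, 19.8% and 78.3%. Its share was thus slightly lower in spinous-like than in basal-like cells although its CPM was slightly higher, and no order between them is read for this gene. Krtdap was detected after thinning in 89.7% of basal-like and 99.4% of spinous-like cells, and in 64.1% of the T-marker cluster (100%, 100% and 73.3% unthinned). Thinning left out 8 of 528 spinous-like cells and 163 of the 475 cells of the T-marker cluster, and no basal-like, cycling-like or upper follicle-like cell.

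Loricrin and involucrin did not follow the spinous-like clusters. Lor, the major structural precursor of the envelope in normal epidermis, was at 4.61 CPM over all keratinocyte-like cells, with 2.95 CPM (1.75 to 4.67) in cluster 7 and 7.22 CPM (6.11 to 8.48) in the cycling-like cluster. Ivl, an early scaffold onto which other precursors are joined, was at 29.1 CPM in cluster 1, 21.7 CPM in cluster 7, 16.7 CPM in cluster 3 and 14.2 CPM in cluster 5, and its lowest level was 8.52 CPM in cluster 6. Tchh, the gene of trichohyalin of the inner root sheath, was at 4.10 to 6.87 CPM throughout. Lce6a (1.26 CPM) was highest in cluster 4 at 2.28 CPM and had 0 UMIs in cluster 7. Lce3c stood at 10.3 CPM in cluster 7 and at 0.54 CPM or less in clusters 1 to 6, but 61 of its 63 UMIs in cluster 7 came from 1 cell.

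The enzymes differed from each other. Tgm3, which cross-links Sprr and loricrin proteins before they reach the membrane, was at 152 CPM in cluster 7, 80.7 in cluster 6, 80.1 in cluster 1, 23.1 in cluster 3, 18.0 in cluster 4, 12.5 in cluster 2 and 7.38 in cluster 5. The levels in clusters 1 and 6 were within their intervals of each other. Tgm1, the membrane-bound transglutaminase, was about 1 order of magnitude lower, at 13.3 CPM in cluster 7, 6.48 in cluster 6 and 5.74 in cluster 1. Casp14, a caspase that processes filaggrin, was at 1.60 to 4.71 CPM in clusters 1 to 6 and at 33.3 CPM (28.9 to 38.2) in cluster 7. Asprv1, a retroviral-like aspartic protease that cleaves profilaggrin, was highest at 40.2 CPM in cluster 5, followed by 23.6 CPM in cluster 7 and 8.58 CPM in cluster 1. In cluster 5, however, 155 of the 381 Asprv1 UMIs came from 1 cell and 77.2% from 5 cells, and 5 cells also held 85.5% of the 159 UMIs of Crct1, whose level there was 16.7 CPM.

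The first comparison set the 528 spinous-like cells against the 1061 basal-like cells. Of 26 members, 14 were over 2-fold higher and 1 over 2-fold lower in the spinous-like cells, where 3.63% and 7.44% of the 11953 genes compared were that much higher and lower. The median log2 ratio was 1.04 over the members and -0.16 over all genes. Sprr2b was at 60.1 against 6.32 CPM (9.52-fold, 8.25 to 11), Casp14 at 14.7 against 1.85 CPM (7.97-fold, 6.08 to 10.6) and Sprr1a at 65.4 against 11.6 CPM (5.66-fold, 5.05 to 6.34). Sprr2j-ps was 4.63-fold, Sprr1b 4.28-fold, Sprr2d 4.21-fold, Sprr2e 3.47-fold, Sprr2f 2.66-fold and Sprr2i 2.65-fold higher. Sbsn (2.58-fold) and Krtdap (2.11-fold) were also past the limit, and Dmkn at 1.92-fold was just under it. Sprr2h (1.64-fold) and Tgm3 (1.64-fold) were higher in spinous-like cells by less, and the ratio of Sprr2a3 was 1.14 (1.11 to 1.18). The interval of Lor included no difference (0.948, 0.697 to 1.28), and Ivl was at 13.1 against 24.1 CPM, a ratio of 0.546. The member past 2-fold in the other direction was Lce6a, on 5 against 54 UMIs. Lce3c (9.12-fold), Sprr2k (2.46-fold) and Tgm1 (2.01-fold) were past the limit only with all cells included. In a comparison chosen after the data were seen, the 5 cells of each group that held most UMIs of the member in question were left out. Lce3c then had too few UMIs to be compared, and Sprr2k and Tgm1 were under the limit. Asprv1 and Crct1 passed the limit, Ivl passed it in the lower direction (0.460), and the counts were 13 higher and 2 lower.

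Within the spinous-like cells, 15 of 25 members were over 2-fold higher in cluster 7 than in cluster 6 and none was over 2-fold lower, against 3.28% and 6.09% of 10334 genes. The median log2 ratio was 1.40 over the members and -0.14 over all genes. Sprr1a was at 157 against 15.8 CPM (9.94-fold, 8.47 to 11.7), Casp14 at 33.3 against 4.71 CPM (7.08-fold, 5.21 to 9.77) and Asprv1 at 23.6 against 4.26 CPM (5.54-fold, 3.97 to 7.85). Sprr2b, Sprr2i and Sprr2j-ps were 4.07-fold to 4.60-fold higher, and Sprr1b was 3.38-fold and Sprr2d 3.04-fold higher. Smaller differences were found for Krtdap (1.58-fold), Dmkn (1.54-fold), Sprr2a3 (1.32-fold) and Sprr2f (1.31-fold). Ivl was 2.54-fold higher in cluster 7 although it was lower in spinous-like than in basal-like cells. Without the 5 richest cells per member and group, 12 members remained past the limit. Sprr2k and Tgm1 did not, and Lce3c had too few UMIs to be compared.

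**Figure D3:**
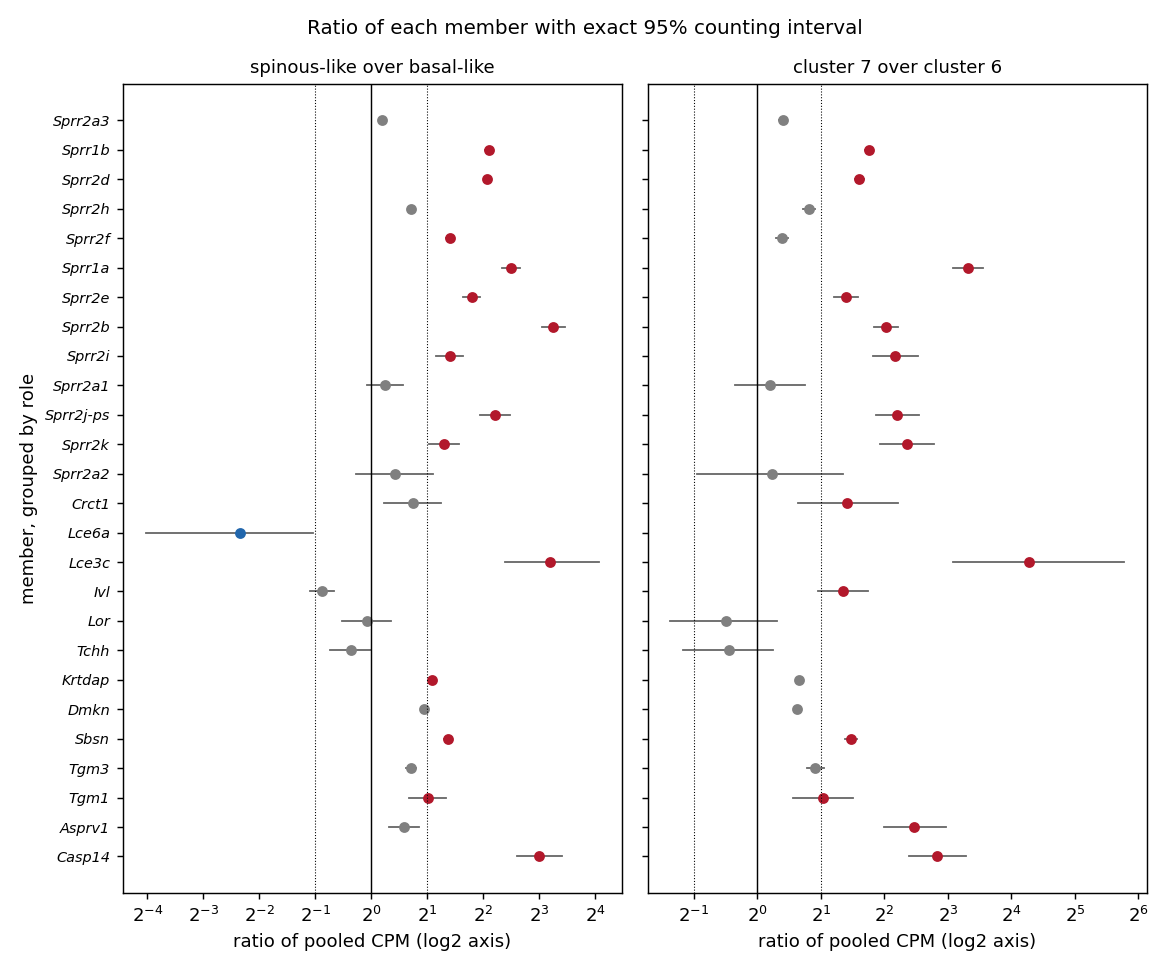
Ratio of pooled CPM for each member compared (points) with its exact 95% interval (horizontal bars) on a log2 axis, for spinous-like over basal-like cells (left) and cluster 7 over cluster 6 (right); red and blue points are past 2-fold, marked by dotted lines. Sprr2b and Casp14 lie far to the right in both panels, while Sprr2a3, Lor and Tchh lie between the dotted lines.

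The basal-like clusters were not alike. Between clusters 1 and 4, 13 of 25 members were over 2-fold higher in cluster 1 and 1 over 2-fold lower, against 5.78% and 7.64% of 11460 genes. Tgm3 was at 80.1 against 18.0 CPM (4.45-fold, 3.80 to 5.24), Sprr2h at 142 against 28.9 CPM (4.92-fold, 4.34 to 5.59), Sprr1b at 125 against 35.9 CPM (3.48-fold, 3.11 to 3.91) and Ivl at 29.1 against 9.11 CPM (3.19-fold, 2.55 to 4.05). Tgm1 had 158 UMIs in cluster 1 and 4 UMIs in cluster 4, a ratio of 13.2 (5.07 to 49.2). Sprr2a3 differed the other way, at 366 against 621 CPM (0.590). Cluster 1 also had more Krt6a, a keratin of hyperproliferative epidermis (2419 against 279 CPM), and more Krt17 (1349 against 255 CPM), and less Krt15, a basal keratin (45.8 against 517 CPM). Krt16 (517 against 157 CPM) and Krt6b (127 against 28.4 CPM) were also higher in cluster 1. Krt1 (78.4 CPM) and Krt10 (63.9 CPM) were low in cluster 1, so these members were higher there without high Krt1 and Krt10. In CPM, 8 of the 26 members in cluster 4 were at or below the T-marker cluster, against 3 in cluster 1. The interval lay above that of the T-marker cluster for 4 members in cluster 4 and 13 in cluster 1. Without the 5 richest cells, 12 members were past the limit and Asprv1 and Sprr2a2 were not.

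Cycling-like cells had lower levels of many members than the 2 basal-like clusters summed. None of 26 members was over 2-fold higher and 13 were over 2-fold lower, against 2% and 3.95% of 12030 genes, and the median log2 ratio was -0.93 over the members and 0.02 over all genes. Tgm3 was at 12.5 against 64.5 CPM (5.17-fold lower, 4.55 to 5.90), Sprr2h at 34.7 against 114 CPM (3.27-fold lower, 3.03 to 3.55) and Sprr1b at 33.8 against 103 CPM (3.04-fold lower, 2.81 to 3.30). Ivl was 2.25-fold lower and Tgm1 3.16-fold lower than in both basal-like clusters together. Dmkn did not follow (0.991, 0.976 to 1.01), and Sprr2a3 (1.34-fold) and Lor (1.83-fold, 1.45 to 2.32) were higher in cycling-like cells. For the 13 members in cluster 2 at or below the T-marker cluster in CPM, free RNA and expression by those cells cannot be told apart on that scale. In UMIs per cell, all 26 members in cluster 2 were above the T-marker cluster. Which scale describes free RNA was not tested. The basal-like group itself was divided, and the cluster 4 levels of Sprr1b (35.9 CPM) and Sprr2h (28.9 CPM) lay next to those of cluster 2. Cluster 4 was below cluster 2 for Krtdap (1087 against 1283 CPM) and Sprr2f (25.3 against 34.0 CPM), and in its member share. For Sbsn (44.2 against 49.0 CPM), Ivl (9.11 against 10.7 CPM) and Tgm1 (0.434 against 1.40 CPM) the intervals of the 2 clusters overlapped. Without the 5 richest cells, Crct1 and Asprv1 were no longer past the limit and 11 members were.

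In the upper follicle-like cells the Sprr2 genes and Tgm3 were low and the secreted proteins were not. Against spinous-like cells, 2 of 25 members were over 2-fold higher and 16 over 2-fold lower, where 11.2% and 3.81% of 11237 genes were. Tgm3 was at 7.38 against 106 CPM (14.3-fold lower, 11.3 to 18.5), Sprr2b at 3.69 against 60.1 CPM (16.3-fold lower, 11.7 to 23.5), Sprr2d at 30.2 against 408 CPM (13.5-fold lower, 12.0 to 15.2) and Sprr2f at 15.7 against 212 CPM (13.5-fold lower, 11.5 to 16). Sprr2a3 was 6.34-fold lower (5.88 to 6.85). The cluster 5 levels of these genes were at or below those of the T-marker cluster. Sbsn was 1.59-fold higher in the upper follicle-like cells, and 1.36-fold without the 5 richest cells of each group. The ratio of Sprr1a was 1.49, and 0.995 without the 5 richest cells of each group. Krtdap (1.71-fold lower) and Dmkn (1.90-fold lower) were within 2-fold. Asprv1 (3.63-fold) and Crct1 (4.77-fold) were the members past the limit in the higher direction, and neither was without the 5 richest cells. In cluster 5, 9 cells held both genes. The median over the members was -1.81 on the log2 scale, and 0.24 over all genes.

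Cells were also ordered by a scale that uses no member, the share of Krt1 and Krt10 among the UMIs of Krt1, Krt10, Krt5 and Krt14. The 5 equal ranges held 2914, 81, 35, 25 and 13 cells, the last of them thin, and 12, 14, 10, 8 and 2 of these cells lay within 0.02 of a boundary of their range. The ranges are not cell types, and every cell of the upper 2 ranges came from cluster 7. Krtdap was at 1900, 4917, 6756, 7219 and 9621 CPM along the ranges, Sbsn at 109, 304, 628, 725 and 1473 CPM, and Casp14 at 2.86, 24.1, 60.8, 93.7 and 140 CPM. These 3 genes increased to the end of the scale. Sprr1b was at 123, 443, 701, 685 and 622 CPM, and so changed little from the third range on. Sprr2d was at 114, 533, 549, 670.5 and 394.5 CPM, highest in the fourth range and lower in the last. Sprr2a3 was at 460, 620, 499, 500 and 263 CPM. Of 26 members, 17 were over 2-fold higher and 2 over 2-fold lower in the fourth range than in the first, against 20.1% and 18.9% of 12857 genes.

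**Figure D4:**
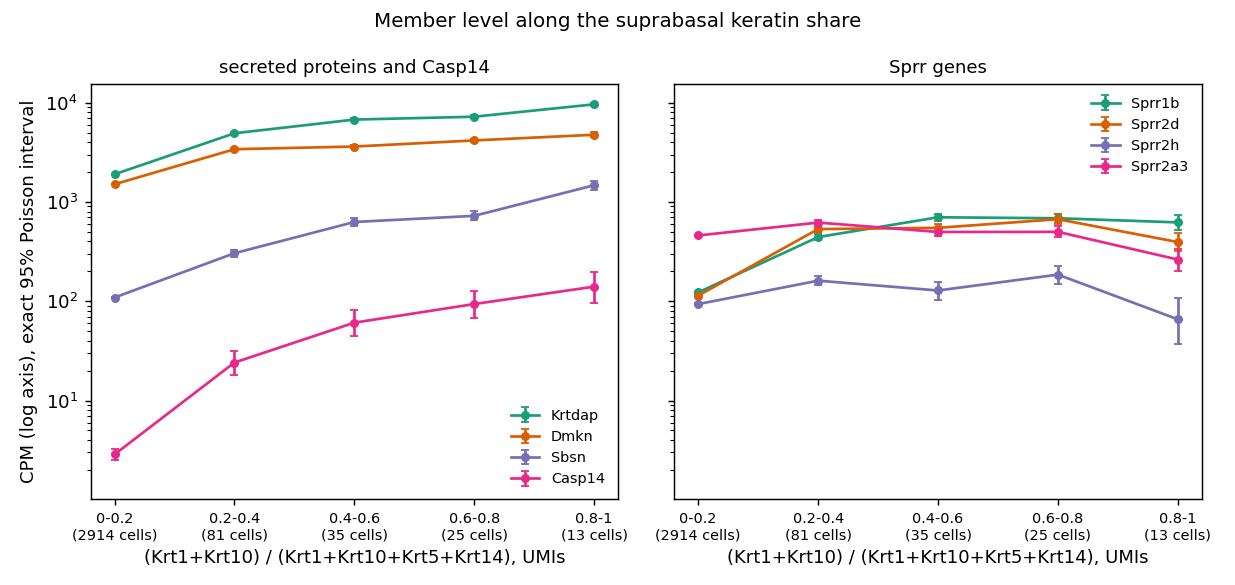
Level of 8 members (CPM on a log axis, with exact 95% Poisson intervals) in 5 ranges of the suprabasal keratin share, the number of cells in each range given below the axis. Krtdap, Dmkn, Sbsn and Casp14 (left) increase over all ranges, while Sprr1b, Sprr2d, Sprr2h and Sprr2a3 (right) level off or fall in the last range of 13 cells.

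Cluster 7 was divided further, and its sub-clusters 7a and 7b differed in which members were high. By marker counts 7b was granular-like, with 12 granular against 11 spinous markers and 2 against 1 among its 10 leading genes, but 7a also had 12 granular markers, against 10 spinous ones, so on this thin margin the sub-clusters are called by number. Sub-cluster 7a (58 cells, median 13879 UMIs) had the most Krt10, the keratin of normal spinous cells, at 10144 CPM, and 7b (53 cells, median 28600 UMIs) had the most Krt16, a keratin of wounded and psoriatic epidermis, at 10256 CPM. Member UMIs were 1.75% of the total in 7a, 1.47% in 7b, 1.18% in 7c (50 cells), 0.859% in 7d (43 cells) and 0.790% in 7e (36 cells). Krtdap was at 7660 CPM in 7a and 4770 CPM in 7b, Sbsn at 988 and 484 CPM, Casp14 at 115 and 21.6 CPM, Ivl at 61.6 and 23.0 CPM and Asprv1 at 100.2 and 8.12 CPM. The Sprr genes and Tgm3 were distributed differently. Sprr1b was at 1120 CPM in 7a and 2161 CPM in 7b, Sprr2h at 186 and 506 CPM, Sprr2f at 136 and 473 CPM, Sprr2e at 67.8 and 273 CPM and Tgm3 at 123 and 329 CPM. Sub-cluster 7e, which had Krt10 at 2307 CPM but Krt16 at 251 CPM, had Sprr1b at 56.2 CPM and Tgm3 at 58.3 CPM, the lowest levels of these genes among the 5.

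Between 7b and 7a, 8 of 21 members were over 2-fold higher in 7b and 6 over 2-fold lower, against 12.9% and 4.2% of 6047 genes. Sprr2e was 4.03-fold (3.10 to 5.32), Sprr2f 3.49-fold (2.89 to 4.24), Sprr2h 2.72-fold (2.31 to 3.23) and Tgm3 2.68-fold (2.18 to 3.30) higher in 7b. Asprv1 was 12.3-fold lower (6.75 to 24.7), Casp14 5.30-fold lower (3.55 to 8.13), Sprr2a3 3.02-fold lower (2.69 to 3.40) and Sbsn 2.04-fold lower (1.85 to 2.25) in 7b. Several Sprr genes were within the limit, with Sprr1b at 1.93-fold, Sprr1a at 1.61-fold, Sprr2d at 1.25-fold and Sprr2b at 0.842 (1.06 without the 5 richest cells). The large ratios of Lce3c and Sprr2k rested on few cells: 61 of 62 Lce3c UMIs of 7b came from 1 cell, and 81.4% of its 156 Sprr2k UMIs from 3 cells. Without the 5 richest cells, Lce3c, Sprr2k and Crct1 were no longer past the limit, while Sprr1b (2.93-fold) and Tgm1 (2.49-fold) were. Ptprc had a UMI in 0% of the cells of 7a and 7.55% of those of 7b, and its part in these differences was not tested.

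**Figure D5:**
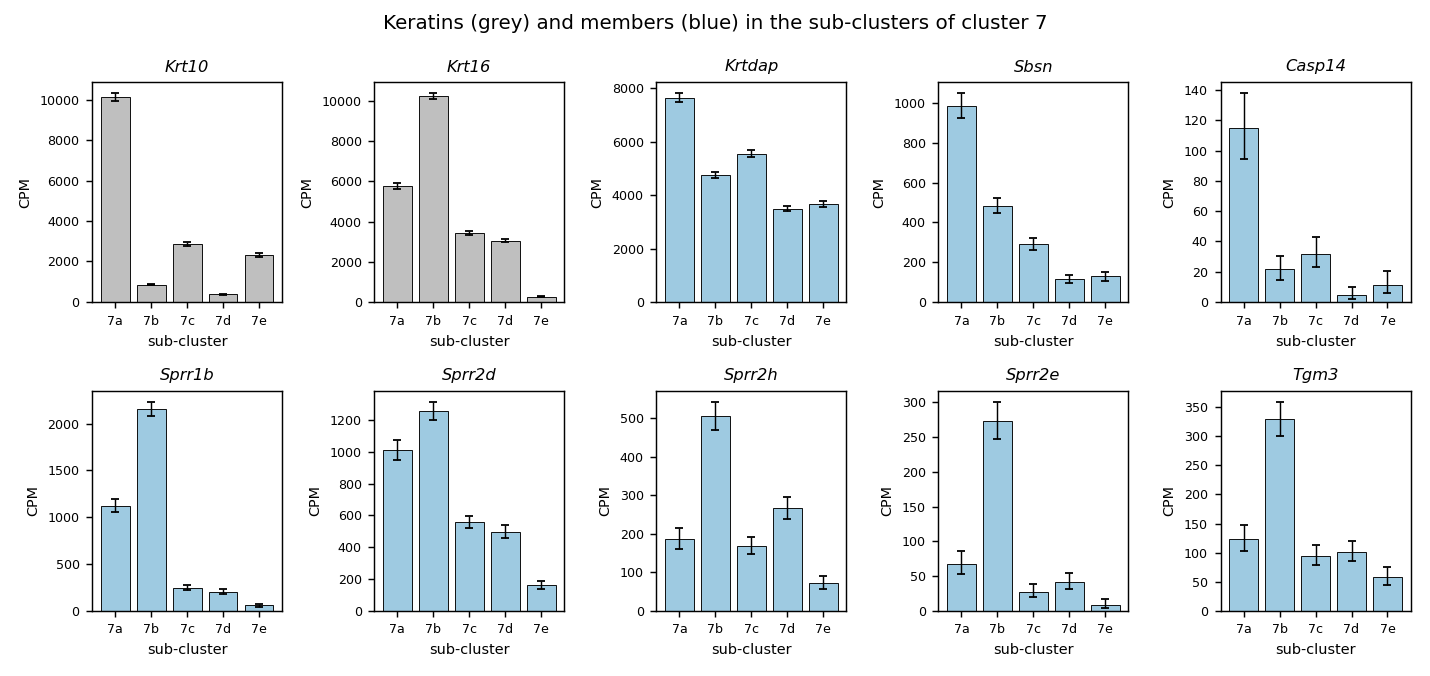
CPM of Krt10 and Krt16 (grey bars) and of 8 members (blue bars) in the 5 sub-clusters of cluster 7, with exact 95% Poisson intervals; each panel has its own axis from 0. Krtdap, Sbsn and Casp14 are highest in 7a with Krt10, and Sprr1b, Sprr2d, Sprr2h, Sprr2e and Tgm3 are highest in 7b with Krt16.

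From cell to cell Sprr1b, Sprr2d, Sprr2h and Tgm3 went with the stress keratins and Sprr2a3 did not, while the secreted proteins were not separated in this way. Over the 240 cells of cluster 7, all from 1 library and of differing depth, Pearson's r of Sprr1b was 0.61 with Krt16, 0.70 with Krt6b and -0.04 with Krt10. Sprr2d had 0.59, 0.66 and -0.12 with the same 3 keratins, Sprr2h 0.55, 0.62 and -0.25, and Tgm3 0.47, 0.49 and -0.20. Krtdap had 0.35 with Krt16, 0.16 with Krt6b and 0.47 with Krt10, and Sbsn 0.48, 0.42 and 0.27, so Sbsn went more with Krt16 than with Krt10. Casp14 had 0.06, 0.02 and 0.32. Over the 288 cells of cluster 6, Sprr1b had 0.53 with Krt16, 0.57 with Krt6b and -0.02 with Krt10, and Krtdap had 0.34, 0.26 and 0.31. In cluster 6, Sprr2d had 0.47 with Krt16 and 0.54 with Krt6b, and Sprr2h had 0.56 and 0.58. Sprr1a had 0.42 and 0.47 with these keratins in cluster 7, but -0.02 and 0.04 in cluster 6. Sprr2a3 had values between -0.17 and 0.06 with each of Krt10, Krt1, Krt16 and Krt6b in cluster 7, and between -0.15 and 0.08 in cluster 6.

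In the dermal library the members together took a very small share of UMIs, with 1 exception among the kinds of cell. Members made up 0.0043% to 0.0135% of UMIs in the T cell-like, dendritic or Langerhans-like, macrophage or monocyte-like, mast or basophil-like, endothelial-like and fibroblast-like cells and in the unnamed cells. In the 746 neutrophil-like cells, named by 8 of 8 markers, the share was 0.116%, and nearly all of it was Asprv1, with 4424 of 4558 member UMIs. Asprv1 stood there at 1123 CPM (1090 to 1156), against 34.6 CPM in the other dermal cells and 40.2 CPM in its highest keratinocyte cluster. Among the other dermal cells, Asprv1 was at 97.9 CPM (89.3 to 107) in fibroblast-like and 78.6 CPM (59.0 to 102.5) in endothelial-like cells. It was at 17.8 to 42.1 CPM in the remaining dermal groups, and whether free RNA contributed to these levels was not tested. A UMI was found in 63.7% of dermal neutrophil-like cells (median 2 UMIs per cell, median depth 3833) and in 18.0% of macrophage or monocyte-like cells (median depth 7909). After thinning to 2000 UMIs these shares were 56.5% (52.5 to 60.5) and 4.58%. In the epidermal library the 35 neutrophil-like cells had Asprv1 at 424 CPM, and members made up 0.210% of their UMIs. There Asprv1 gave only 38 of 188 member UMIs, beside 57 of Dmkn and 56 of Krtdap. Tgm1 was not lower in all dermal cells than in keratinocyte-like cells, where it was at 4.24 CPM. Its level was 17.9 CPM (11.5 to 26.6) in mast or basophil-like, 12.2 CPM in neutrophil-like and 7.34 CPM in fibroblast-like dermal cells. Endothelial-like (2.91 CPM) and T cell-like (0.332 CPM) dermal cells were lower. The single dermal keratinocyte-like cell, with 19134 UMIs, held 65 UMIs of Krtdap, 27 of Dmkn, 7 of Sbsn and 1 of Tgm1, and no Sprr or Lce UMI.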

How the data were processed

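The epidermal and the dermal library, 1 each, were measured as single-cell RNA-seq. The deposited values are raw UMI counts per gene and cell, which the authors made with Cell Ranger on mm10 as filtered matrices without pooling, and per the labels CASAVA was also used. Counts were analysed as deposited. According to the methods the authors kept cells with a narrower range of genes and fewer mitochondrial reads, and that limit is an alternative here. Age is given as 10 weeks in the labels and differently in the methods.

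The filter removed cells under 200 genes or above 10% mitochondrial UMIs and set no upper limit on genes (Python 3.11.15, numpy 2.4.6, scipy 1.17.1). For clustering, counts were scaled to a common total per cell, smaller than that of CPM, and log-transformed. From these values, 2000 variable genes without members and 30 principal components were used. Leiden clusters (leidenalg 0.10.2, resolution 0.6) were drawn for all cells and again for keratinocyte-like cells. A cluster was named from markers that are not members. The rule that decides between spinous-like and granular-like was set after the clusters were seen. Doublets were not removed in the values reported; a simulation-based call, which marked 139 epidermal and 180 dermal cells, is an alternative. Of the marked cells, 117 were keratinocyte-like.

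UMIs were summed over the cells of a group. Ratios are of pooled CPM, called past 2-fold where a gene's UMIs in the 2 groups together came to 20 or more, and the log2 ratio had 0.5 UMI added to each sum. The calculation was tested on simulated data. Named are all members with at least 20 UMIs in keratinocyte-like cells, the markers, and genes of related lists by the size of their ratio, of which 1 is not reported here. The members and lists were chosen with earlier results of these data known. The cells of 1 library are not replicates, so no p-value is given. Total depth was 108768396 UMIs for 5258 epidermal cells and 41258087 UMIs for 5376 dermal cells. Gene positions are GENCODE M21 (GRCm38), in which all 52 members matched by identifier, and promoters are RefSeq (GRCm38.p6).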

Additional observations from a re-analysis of the deposited data

Results flagged for a closer look

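The comparisons between keratinocyte groups do not use the dermal library. In that library 3 members were flagged as higher in 1 kind of cell than in the other dermal cells. Asprv1 was at 1123 CPM in neutrophil-like cells and at 34.6 CPM (32.8 to 36.6) in the other dermal cells, of which fibroblast-like cells reached 97.9 CPM. Dmkn was at 42.5 CPM (36.8 to 48.9) in dendritic or Langerhans-like cells, on 196 UMIs and with a UMI in 14.4% of cells. It was at 16.6 CPM in the other dermal cells, of which macrophage or monocyte-like cells reached 23.1 CPM. Tgm3 was at 10.3 CPM (6.99 to 14.6) in T cell-like cells, on 31 UMIs in 4.65% of cells, against 0.401 CPM in the other dermal cells. Members not flagged were also uneven, with Tgm1 highest in mast or basophil-like cells (17.9 CPM) and Sbsn in fibroblast-like cells (18.6 CPM). No explanation of these levels was tested.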

How the results depend on the processing

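Each library is 1 sample, depth differs between groups, free RNA is present, and the limit of 20 UMIs leaves 26 members without a ratio. No paired analysis was possible because there is 1 library of each tissue. The planned comparisons of granular-like cells and of dermal-library keratinocytes were not run, since none of the 8 clusters was granular-like (sub-cluster 7b was by a thin margin and is compared by number) and the second group held 1 cell. The comparisons of clusters 7 and 6, of clusters 1 and 4 and of sub-clusters 7b and 7a, and the removal of the 5 richest cells, were added after seeing the data.

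The count of members higher in cycling-like cells changed from 0 to 1 at 1.5-fold. That in upper follicle-like cells changed from 2 to 4 with the limits of the study methods and to 0 without the 5 richest cells per member. The share of member UMIs moved in every state. With the limits of the study methods it was 0.385% in basal-like, 0.354% in cycling-like, 0.935% in spinous-like and 0.519% in upper follicle-like cells. As a mean of per-cell CPM it was 0.403%, 0.342%, 1.01% and 0.469%, and without the 1% of cells richest in members 0.415%, 0.342%, 0.868% and 0.410%. With doublets removed it was 0.343% in cycling-like, 0.887% in spinous-like and 0.447% in upper follicle-like cells. At resolution 1.0 it was 0.420% in basal-like and 0.377% in cycling-like cells, and in spinous-like cells it was 0.883% at resolution 0.3 and 0.884% with members among the variable genes. Spinous-like cells kept the largest share of the 4 states in each of these. The cause was not tested.

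Among single members, the log2 ratio of Asprv1 between clusters 1 and 4 reversed to -0.17 without the 1% richest cells and to -0.046 without its 5 richest cells. Between 7b and 7a, per-cell means reversed Ivl to 0.049 and Crct1 to 0.78. Without the 5 richest cells, 2 of the printed ratios within 2-fold also changed side of 1: Sprr1a in upper follicle-like over spinous-like cells (0.995) and Sprr2b in 7b over 7a (1.06). Of the other values of members past 2-fold, the only ones recomputed under the other alternatives, 625 kept their direction and their side of the 2-fold limit and 37 kept their direction only.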

Other observations

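Genes that work beside the envelope were counted in the same way, from 5 lists, and since some could have helped to define the clusters their ratios are descriptions. Between spinous-like and basal-like cells, 9 of 20 envelope scaffold and desmosome genes and 10 of 23 barrier lipid genes were over 2-fold higher. So were 9 of 23 protease and inhibitor genes, 6 of 33 transcription factors and 2 of 13 stress keratins and S100 genes. Of all genes compared, 3.63% were that much higher and 7.44% lower. In the lists, 1 protease or inhibitor gene and 1 transcription factor were over 2-fold lower. The median log2 ratios of the 5 lists were 0.91, 0.75, 0.57, 0.096 and 0.18, beside -0.16 over all genes. Clusters 7 and 6, both spinous-like, were also compared, because no cluster was separately granular-like. The counts of genes over 2-fold higher in cluster 7 were 7 of 19, 8 of 22, 6 of 22, 0 of 33 and 2 of 12. Of all genes compared, 3.28% were that much higher and 6.09% lower. In the lists, 1 gene was over 2-fold lower, of the protease and inhibitor list. The median log2 ratios were 0.65, 0.79, 0.43, 0.09 and 0.17, beside -0.14 over all genes.

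Cnfn, the gene of cornifelin, was at 121 CPM in cluster 7 and 5.59 CPM in cluster 6, and Tgm5, another transglutaminase, at 7.71 and 0.710 CPM, while Jup (1.25-fold) and Dsg3 (0.963) of the desmosome differed little. Of the lipid genes, Alox12b (13.7-fold) and Sdr9c7 (9.24-fold) were highest in ratio and Sptlc2 (0.926) and Asah1 (0.679) lowest. Serpinb12 was at 23.6 against 1.60 CPM. Wfdc5 stood at 4.43 against 0.0888 CPM, with a wide interval of its ratio (8.22 to 2042), and Ctsl (0.712) was lower in cluster 7. Grhl3, a regulator of barrier genes, was 1.96-fold and Rora 1.84-fold higher, and Ovol2 (0.616) and Notch1 (0.577) had the lowest ratios of the transcription factors. Krt6b (3.39-fold) and Krt16 (2.41-fold) led the stress keratins, and S100a10 (0.660) and S100a3 (0.516) were lowest.

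The genes outside the set whose log2 CPM over clusters 1 to 7 was most like that of the summed members were 4833423E24Rik (r 0.99), Polr3g (0.99), Nbeal2 (0.99), Klk13 (0.99) and Atp6v0b (0.99), each r over 7 clusters of 1 library.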
